A study of Oryza sativa with 8 samples.

Results

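Iron storage in rice was followed through 5 genes: the ferritins OsFER1 (Os11g0106700, chromosome 11) and OsFER2 (Os12g0106000, chromosome 12), the vacuolar iron transporters OsVIT1 (Os04g0463400, chromosome 4) and OsVIT2 (Os09g0396900, chromosome 9), and the mitochondrial iron transporter MIT (Os03g0296800, chromosome 3). They were picked by name, as the genes whose symbol columns in the deposited annotation held these symbols, and make up 5 of 46120 genes. The symbol OsVIT1 is also listed as a further name of Os09g0396900, which is called OsVIT2 here. All plants were of the cultivar Tsukinohikari and grew in hydroponic culture with sufficient iron. Roots and leaves were sampled from 1 non-transformant (NT) and from 3 lines that overexpress OsbZIP83, which encodes a bZIP transcription factor (b83OX-13, b83OX-15, b83OX-19; below, lines 13, 15 and 19). This gave 8 libraries, with 1 NT library and 3 line libraries in each tissue. The promoter that drives OsbZIP83 in the lines, the age of the plants and the number of plants behind a sample were not stated in the labels. The p-values therefore measure the spread between these samples, which may be partly technical, and NT had no replicate.

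Iron that a cell does not use at once has to be kept in a form that does not react with oxygen. Ferritins are hollow protein shells that hold ferric iron, in plants mainly inside plastids, and their transcripts are known to rise when iron is plentiful. The VIT proteins sit in the vacuolar membrane and move iron, and in rice also zinc, into the vacuole, and MIT is a carrier of the mitochondrial inner membrane that brings iron into the organelle where iron-sulphur clusters are built.

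Levels are reads per 1000000 gene reads (RPM) from Lasy-Seq, which reads the 3′ ends of polyadenylated RNA. They are not scaled by transcript length, so each gene is compared with itself across samples and not with the others. Each library summed to 1000000 RPM over the genes and held about 17000000 to 35700000 gene reads, as judged from the value of a single read. OsbZIP83 was above NT in every line, at 154 to 188 RPM in roots where NT was at 32.0 RPM and at 75.3 to 100.5 RPM in leaves where NT was at 1.62 RPM. The summed level of 18 leaf marker genes was 74658 to 91324 RPM in leaves and 23.1 to 210.4 RPM in roots, and that of 7 root marker genes was 6975 to 9062 RPM in roots and 0.689 to 5.35 RPM in leaves. The values look as if a small share of each gene's total had been taken off every library, as described with the ferritins, and such a step can put a leaf gene at 0 in roots. With the estimated reads added back the leaf markers summed to 433 to 989 RPM in roots, an upper value where a gene is listed at 0, and to 74328 to 90757 RPM in leaves. The Rubisco small subunit genes OsRBCS2, OsRBCS3 and OsRBCS4 were listed at 0 in the 4 root libraries, which for this reason does not show that they lacked these transcripts.

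Both ferritins were leaf genes in these plants. The NT root library held OsFER1 at 63.9 RPM, and those of lines 13, 15 and 19 at 82.9, 71.0 and 88.4 RPM. Its leaf level was 1060.0 RPM for NT and 1469, 1743 and 1395 RPM for these lines. OsFER2 had a root level of 29.8 RPM for NT and 49.6, 48.8 and 48.1 RPM for the lines, and a leaf level of 618 RPM for NT and 820.0, 945 and 809 RPM for the lines. For each ferritin the lowest leaf library lay far above the highest root library, and within each tissue the NT library was the lowest of the 4.

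**Figure D1:**
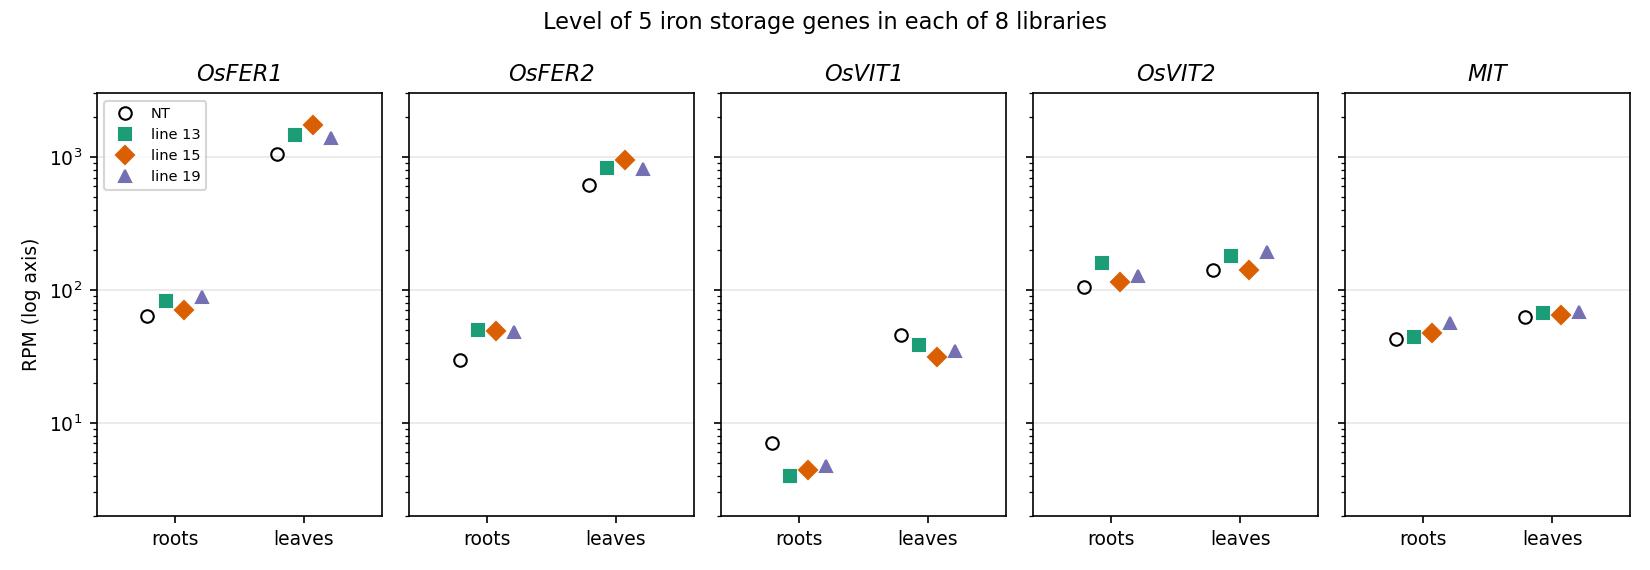
Level of each gene in RPM on a log axis, with roots on the left and leaves on the right of each panel; every point is 1 library, open circles are NT and filled symbols are lines 13, 15 and 19. Leaf and root points of OsFER1, OsFER2 and OsVIT1 stand far apart, those of MIT are close but separate, and those of OsVIT2 overlap.

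Over all genotypes the mean of OsFER1 was 76.5 ± 11.1 RPM in roots and 1417 ± 281 RPM in leaves (SD, n = 4 each), 18.5 times higher in leaves. The mean of OsFER2 was 44.0 ± 9.54 RPM in roots and 798 ± 135 RPM in leaves, 18.1 times higher. On the log2(RPM + 1) scale the root minus leaf difference was -4.18 ± 0.16 for OsFER1 (SE, limma adjusted p = 7.5e-09) and -4.16 ± 0.18 for OsFER2 (limma adjusted p = 2.13e-08). The leaf level divided by the root level of the same genotype ranged from 15.8 in line 19 to 24.5 in line 15 for OsFER1, and from 16.5 in line 13 to 20.7 in NT for OsFER2. The ferritin with the larger ratio thus differed between genotypes, being OsFER2 in NT and line 19 and OsFER1 in lines 13 and 15.

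OsVIT1 was also higher in leaves, at a lower overall level. Its root values were 7.04 RPM for NT and 3.95, 4.40 and 4.70 RPM for lines 13, 15 and 19, and its leaf values 45.8 RPM for NT and 38.3, 31.5 and 34.7 RPM for the lines. NT was the highest library in each tissue, the reverse of the order seen for the ferritins. The leaf mean was 7.48 times the root mean, and the root minus leaf difference was -2.69 ± 0.17 (SE, limma adjusted p = 2.55e-07). The root values rested on about 79 to 139 reads each, the fewest of any of these genes.

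OsVIT2 and MIT differed less between tissues, with leaf means as deposited of 1.29 and 1.38 times their root means. The root level of OsVIT2 was 104 RPM for NT and 161, 115 and 128 RPM for lines 13, 15 and 19, and its leaf level 140.2, 181, 140.6 and 193 RPM in the same order. Its tissues overlapped, because the root library of line 13 lay above the leaf libraries of NT and line 15. The root minus leaf difference of OsVIT2 was -0.37 ± 0.16 and did not pass (SE, limma adjusted p = 0.0514). With the line as a replicate block, which compares root and leaf of the same genotype, it was -0.37 ± 0.09 and passed (limma adjusted p = 0.00864). So did 18273 of the 21991 genes tested. OsVIT2 was lower in roots in 4 of 4 genotypes, and the share of all genes with 1 direction in all 4 was not counted. The root level of MIT was 42.5, 44.4, 47.2 and 56.2 RPM, again for NT and lines 13, 15 and 19, and its leaf level 62.3, 66.6, 65.01 and 68.5 RPM. Its root and leaf libraries did not overlap, and the difference of -0.46 ± 0.09 passed (SE, limma adjusted p = 0.00128).

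In all, 4 of the 5 genes passed in the comparison of roots with leaves, all 4 lower in roots. This comparison called 82.7% of the 21991 genes tested, 58.5% higher and 24.2% lower in roots (83.5% at an unadjusted p under 0.05, as were 5 of the 5), so that passing it was common and the direction of the storage genes was the rarer of the 2. Roots and leaves did not overlap in 78.3% of the genes tested and in 4 of the 5 storage genes. For each of these 4 an exact two-sided permutation test over the 8 libraries gave p = 0.0286 (for OsVIT2 p = 0.114). The value of 0.0286 is the smallest this test can give with 4 against 4, and it follows from the lack of overlap. The test did not keep root and leaf libraries of the same genotype together as pairs. The median difference of all genes was 0.59 in favour of roots as deposited and 0.05 after trimmed-mean (TMM) rescaling, where 9096 genes were higher and 8356 lower in roots in place of 12856 and 5328. With TMM rescaling the 5 storage genes were lower in roots by a larger margin, between -4.77 for OsFER1 and -0.95 for OsVIT2, which then passed (limma adjusted p = 0.000211). MIT had -1.04 with that rescaling.

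In roots, OsFER2 was higher in the 3 lines than in the single NT library. NT had 29.8 RPM and the lines a mean of 48.8 ± 0.767 RPM (SD, n = 3), with the 3 lines close together and all well above NT. The log2 fold change was 0.69 ± 0.12 (SE, limma adjusted p = 0.0464), a value just inside the threshold of 0.05. It was the 1 of 5 storage genes that passed, where 1.16% of all genes tested did so, 0.655% higher and 0.509% lower. The call was lost when any 1 of the 3 lines was left out (log2 fold change 0.68 to 0.71, limma adjusted p 0.152 to 0.187). It was also lost in the fit on roots alone (0.0942), and with a pseudocount of 0.1 RPM (0.0514), a filter at 5 RPM (0.0593) or TMM rescaling (0.0638). With the estimated deducted reads added back, as described below, the log2 fold change was 0.52 and the call was lost (limma adjusted p = 0.133).

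The other 4 genes did not pass in roots (limma). OsFER1 averaged 80.8 ± 8.90 RPM over the lines (SD, n = 3), which gave 0.33 ± 0.17 on the log2 scale (SE, limma adjusted p = 0.462), and its 3 lines all lay above NT but were spread from 71.0 to 88.4 RPM. OsVIT1 had the only negative value, -0.59 ± 0.15 (limma adjusted p = 0.156), with a mean of 4.35 ± 0.375 RPM in the lines. OsVIT2 had 0.35 ± 0.22 (limma adjusted p = 0.550), with line 13 well above the other lines, and MIT 0.20 ± 0.14 (limma adjusted p = 0.581), with line 19 above the others. At an unadjusted p under 0.05 stood 2 of the 5, OsFER2 and OsVIT1, against 13.5% of all genes tested. The median log2 fold change of the 5 was 0.33, and that of all genes 0.00. All 3 lines lay above NT for 4 genes and below it for OsVIT1, patterns that 31.9% and 33.4% of all genes tested also showed in roots.

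In leaves 0 of the 5 genes passed, where 3.79% of all genes tested did, 2.66% higher and 1.13% lower (limma). The ferritins came nearest. OsFER2 averaged 858 ± 75.4 RPM over the lines against 618 RPM for NT, with 0.47 ± 0.12 on the log2 scale (SE, limma adjusted p = 0.0786), and OsFER1 1535 ± 183 RPM against 1060.0 RPM, with 0.53 ± 0.17 (limma adjusted p = 0.136). For each of them line 15 was the highest library. OsVIT1 averaged 34.8 ± 3.42 RPM over the lines against 45.8 RPM for NT, with -0.39 ± 0.15 (limma adjusted p = 0.199), and line 15 was its lowest library. For OsVIT2 these values were 171 ± 27.3 and 140.2 RPM (0.28 ± 0.22, limma adjusted p = 0.552), with line 15 level with NT, and for MIT 66.7 ± 1.73 and 62.3 RPM (0.10 ± 0.14, limma adjusted p = 0.770). At an unadjusted p under 0.05 were OsFER1, OsFER2 and OsVIT1, 3 of 5 against 21% of all genes tested. All 3 lines lay above NT for 4 genes and below it for OsVIT1, as 42.2% and 20.6% of all genes tested did in leaves. The median log2 fold change of the 5 was 0.28 beside 0.09 for all genes. Of all genes, 585 passed as higher and 249 as lower as deposited, and 471 and 370 after TMM rescaling. MIT had -0.03 after that rescaling.

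**Figure D2:**
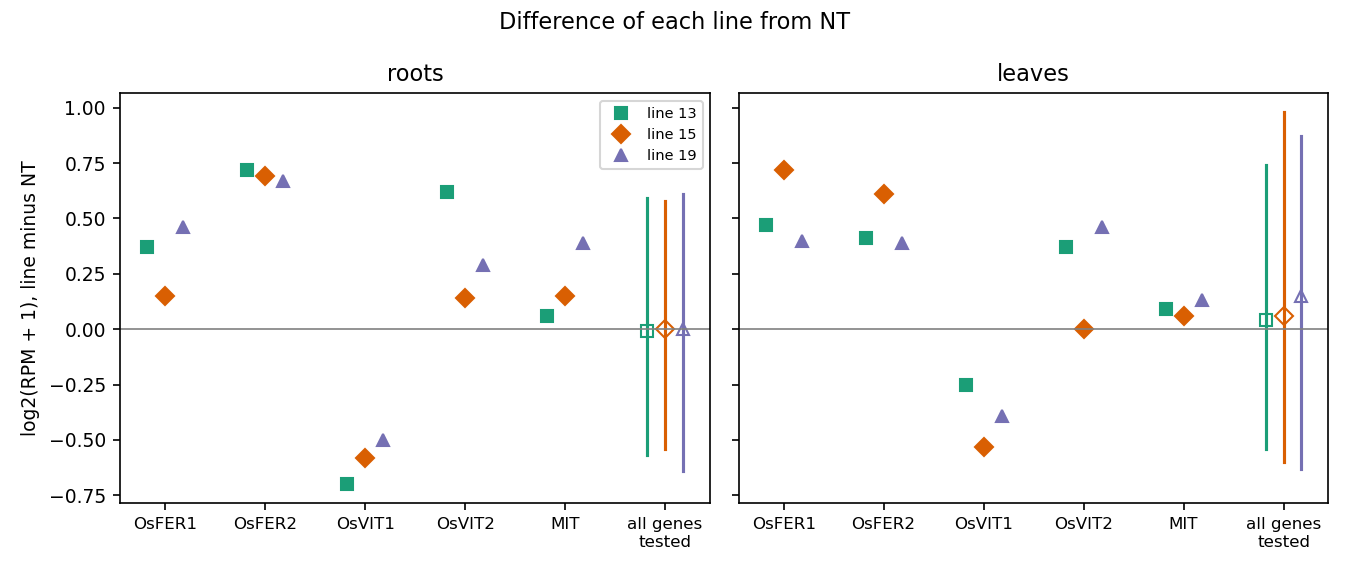
Difference of each line from NT in log2(RPM + 1) for the 5 genes, in roots and in leaves; filled symbols are single lines, and at the right of each panel open symbols with bars give the median and the range from the 5th to the 95th percentile of all 21991 genes tested. OsFER2 in roots lies at 0.67 to 0.72, above the bars of all 3 lines, OsVIT1 is below 0 in all 6 comparisons, and the other points lie at or above 0.

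The spread between lines differed from gene to gene. In roots the coefficient of variation over the 3 lines was 1.57% for OsFER2 and 17.4% for OsVIT2, with 11.02% for OsFER1, 8.62% for OsVIT1 and 12.5% for MIT. The median over 15296 genes with at least 5 RPM in roots was 7.38%. In leaves it was 2.59% for MIT and 15.9% for OsVIT2, with a median of 10.5% over 13582 genes. OsVIT2 was the most variable of the 5 in both tissues, and OsFER2 had the smallest spread in roots but 8.78% in leaves.

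The responses of roots and leaves could not be told apart for any of the 5 genes. The difference of the effects, root minus leaf, lay between -0.20 for OsFER1 and OsVIT1 and 0.22 for OsFER2, with SEs of 0.17 to 0.32 and limma adjusted p of 0.571 to 0.939. With limma 0 of the 5 passed and 0 had an unadjusted p under 0.05, where 0.382% of all genes tested passed (0.123% higher and 0.259% lower, and 15.2% unadjusted). With the line as a replicate block 26 genes passed in place of 84, and again 0 of the 5. The log2 fold change of OsFER2 that passed in roots is thus not shown to differ from the value of 0.47 in leaves. In every line of both tissues 4 genes lay above NT, as did 15.9% of all genes tested.

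The root values of the ferritins were sensitive to a step that may have been made before deposit. It is inferred from the values alone, and no source used here describes it. The values behave as if about 0.14% of a gene's reads over all 8 libraries had been taken off each library, which weighs most on genes far more abundant in the other tissue, as the ferritins are in leaves. With the estimated reads added back the root level of OsFER2 became 37.0 RPM for NT and 55.4, 52.4 and 52.9 RPM for lines 13, 15 and 19, and its log2 fold change was 0.52 ± 0.12 (SE, limma adjusted p = 0.133). All 3 lines stayed above NT, but the call was lost. OsFER1 then had 76.7 RPM for NT and 93.3, 77.5 and 96.9 RPM for the lines, so that line 15 was level with NT. For OsVIT1, OsVIT2 and MIT the same step moved no library by more than 0.721 RPM. OsVIT1 is low in roots, and its value in the root library of line 13 went from 3.95 to 4.21 RPM. The leaf mean of OsVIT1 went from 7.48 to 7.14 times its root mean. With the reads added back the leaf mean was 16.4 times the root mean for OsFER1 and 16.1 times for OsFER2. In leaves OsFER1 shifted by -8.89 to -2.99 RPM and OsFER2 by -4.65 to -1.95 RPM.

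**Figure D3:**
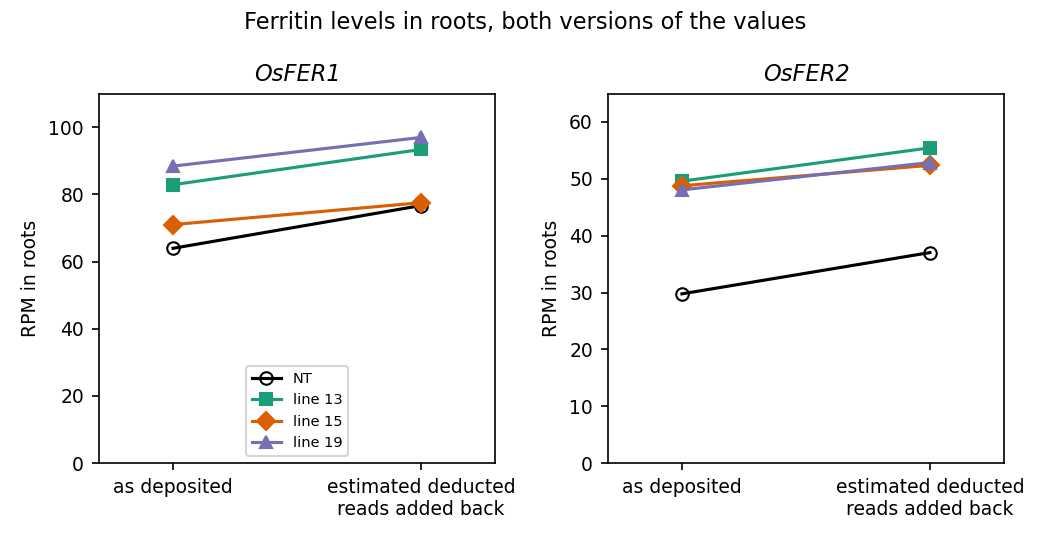
Levels of OsFER1 and OsFER2 in the 4 root libraries in RPM, as deposited on the left and with the estimated deducted reads added back on the right of each panel; a line joins the 2 values of a library. NT rises from 29.8 to 37.0 RPM for OsFER2 and stays below the 3 lines, while for OsFER1 it rises from 63.9 to 76.7 RPM and meets line 15.

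Markers of leaf tissue also differed between root libraries. The 18 leaf marker genes summed to 210.4 RPM in the NT root library, 190.2 RPM of it from the light-harvesting gene CAB1R, and to 23.1, 28.9 and 23.7 RPM in those of lines 13, 15 and 19, with 8 to 12 of them listed at 0. The other 17 markers summed to 20.2 RPM for NT and 23.1, 24.99 and 23.7 RPM for the lines. The drop in the sum thus came from CAB1R. Part of the remainder was not particular to leaves, as Os04g0522800 had 6.78 RPM in NT roots and 5.87 RPM in NT leaves. Os02g0631100 was higher in NT roots (2.21 RPM) than in NT leaves (0.240 RPM), and Os04g0523000 lower (7.23 and 27.8 RPM). The remainder is thus not a measure of leaf transcripts alone. With the estimated reads added back CAB1R had 302 RPM for NT and 97.1, 63.3 and 79.5 RPM for the lines, and the other 17 summed to 687 RPM and 587, 370.0 and 485 RPM, upper values for the genes listed at 0. Chloroplast ribosomal RNA, which belongs to the organelle that holds ferritin, made up 0.125% of the ribosomal RNA class for NT and 0.450%, 1.43% and 1.86% for the lines. The part of these markers in the ferritin values was not tested. In bulk samples more cells of a type and more RNA per cell cannot be told apart.

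OsFER1 and OsFER2 lie near matching ends of chromosomes 11 and 12, which are known as copies of each other, and the genes are close in sequence. How reads that match both were shared between them is not given in the sources used here, so the split between the pair is uncertain, and this was not tested. The value of OsFER1 divided by that of OsFER2 was, for NT and lines 13, 15 and 19, 2.15, 1.67, 1.46 and 1.84 in roots and 1.72, 1.79, 1.85 and 1.72 in leaves. The NT root library had the highest ratio, also with the estimated reads added back (2.07), while the root ratios of the 3 lines were themselves spread out. Among the 10 genes on either side by locus number, 14 of 20 were tested around each ferritin, and 0 of them passed in roots (limma), where 1.16% of all genes tested did. In leaves 2 of the 14 around OsFER1, 1 higher and 1 lower, and 1 of the 14 around OsFER2, lower, passed, beside 3.79% of all genes tested.

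The list of ferritin-like and vacuolar iron transporter genes, taken by words of the annotation, held 8 genes, of which 7 were tested and 4 were the ferritins and VIT genes above. In roots OsFER2 was the 1 that passed, and 2 of the 7 had an unadjusted p under 0.05, beside 1.16% and 13.5% of all genes tested. In leaves 1 passed and 5 of the 7 had an unadjusted p under 0.05, beside 3.79% and 21%. The median log2 fold change of the 7 was 0.33 in roots and 0.47 in leaves. The gene that passed in leaves was Os04g0538400, described as similar to Nodulin 21, a membrane protein with the same Ccc1 family domain as the VIT transporters. Its leaf level was 5.61 RPM for NT and 21.1, 22.8 and 41.5 RPM for lines 13, 15 and 19, with every line above NT and line 19 far above the others. It rose by 2.09 ± 0.32 on the log2 scale (SE, limma adjusted p = 0.0175). The call was lost without line 15 (limma adjusted p = 0.0698), without a filter (0.0637) and with leaf libraries fitted by themselves (0.279). Its root level was higher, 176 RPM for NT and 257 ± 7.94 RPM over the lines (0.54 ± 0.32, limma adjusted p = 0.521). Os01g0508100, annotated as ferritin/ribonucleotide reductase-like, did not pass in either tissue. Its leaf level was 0.306 RPM for NT and 0.997, 3.91 and 2.07 RPM for lines 13, 15 and 19, with every line above NT (1.25 ± 0.42, limma adjusted p = 0.144). Its root level was 12.7 RPM for NT and 14.2, 15.2 and 16.4 RPM for the lines (0.25 ± 0.42, limma adjusted p = 0.861).

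In total 7 genes carried the Ccc1 family domain, a set formed after their values were known. OsVIT2 passed between tissues only in some settings. Of the 5 tested, OsVIT1 passed as lower in roots and 2 as higher (limma), beside 24.2% and 58.5% of all genes tested. Os04g0538400 was the first of these, and Os04g0686800 the second, at 165 to 240.3 RPM in roots and 0.310 to 3.14 RPM in leaves. Os06g0103800 was even across all samples in the deposited values, at 19.6 to 23.8 RPM. Os02g0644200 was listed at 0 in all roots and at 2.07 RPM for NT and 0.0373 to 0.541 RPM for the lines in leaves, and Os11g0161900 reached at most 0.223 RPM. These 2 were below the filter of a mean of 1 RPM and were not tested.

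**Figure D4:**
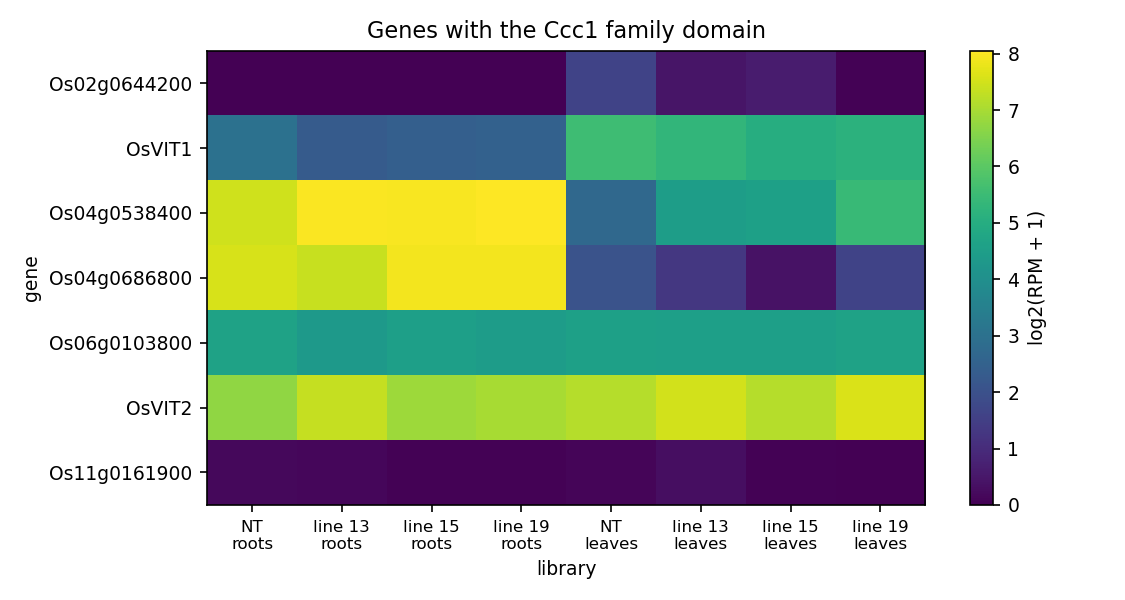
Level of the 7 genes with the Ccc1 family domain in each of the 8 libraries, as log2(RPM + 1) in colour; each row is a gene and is to be read along the row. OsVIT1 is brighter in leaves, Os04g0538400 and Os04g0686800 are brighter in roots, and OsVIT2 and Os06g0103800 change little between tissues in the deposited values.

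Around MIT, 47 genes were listed by words for frataxin and iron-sulphur cluster assembly in their annotation, with MIR added, and 44 were tested. Besides frataxin and scaffold proteins the words took in MDR-type ABC transporters and HSP70 chaperones whose annotation carries an iron-sulphur cluster name, so not all members are known to handle iron. Nor is the list one of mitochondrial genes alone, as Os01g0830000 is described as similar to plastid sufB. With limma 0 passed in roots, 0 in leaves and 0 in the difference of the tissues. At an unadjusted p under 0.05 were 3 of 44 in roots and 5 of 44 in leaves, beside 13.5% and 21% of all genes tested. The median log2 fold change of the list was 0.03 in roots and 0.06 in leaves, beside 0.00 and 0.09 for all genes. Of 9 tested iron regulators 0 passed in either tissue, with 1 in roots and 2 in leaves at an unadjusted p under 0.05, beside the same shares of all genes. Of 16 tested genes of iron uptake and chelation the nicotianamine synthase OsNAS3 (Os07g0689600) was the 1 that passed, higher in roots and lower in leaves, beside 1.16% and 3.79% of all genes tested. The storage genes had no such opposite pattern, each having the same sign in both tissues as deposited.

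The genes most like each storage gene were sought by Pearson's r of log2(RPM + 1) over the 8 libraries, which share their tissue contrast, so that r is a description only. Here and below, genes were named only if they averaged at least 5 RPM and had a symbol in the RAP-DB or CGSNL columns. Counts and shares at 0.95 cover genes with or without a symbol, so that unnamed genes may lie nearer. For OsFER1 they were C3H54 (Os08g0126700, r = 0.999) and ALDH2B1 (Os06g0270900, 0.998), for OsFER2 MSBP1 (Os10g0502500, 0.999) and OsCRY2 (Os04g0452100, 0.999), and for OsVIT1 GS2, the chloroplast glutamine synthetase (Os04g0659100, 0.997), and CYP714B2 (Os03g0332100, 0.995). Such likeness was common: 16.9%, 16.7% and 15.1% of 15859 genes reached 0.95 with OsFER1, OsFER2 and OsVIT1. MIT was most like ERF85 (Os05g0448700, 0.986) and DOF20 (Os06g0284500, 0.972), and 0.965% of genes reached 0.95 with it. OsVIT2 had no gene at 0.95, and the nearest with a symbol were ZIFL7 (Os11g0135900, 0.914) and OsRRMh (Os09g0516300, 0.910).

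Subtracting the mean of each tissue leaves the differences between the libraries of a tissue. With 1 library per genotype and tissue, genotype and technical differences cannot be told apart in these. Far fewer genes then reached 0.95, between 6 for OsVIT2 (0.0378% of 15859 genes) and 49 for OsFER2 (0.309%). OsFER2 was then nearest to OPR4, similar to 12-oxophytodienoic acid reductase (Os06g0215900, 0.994), and again to MSBP1 (0.983). OsFER1 was nearest to CBL1, a calcium sensor (Os10g0564800, 0.956), and ZFP252 (Os12g0583700, 0.956). OsVIT1 was nearest to AOC, an allene oxide cyclase of jasmonate synthesis (Os03g0438100, 0.969), and DRAP1 (Os11g0544700, 0.961). OsVIT2 was nearest to ABCI8 (Os05g0400600, 0.969) and BGLU31 (Os09g0511600, 0.959), and MIT to ISC10, annotated with an FeS cluster insertion domain (Os08g0369700, 0.978), and ERF85 (0.973).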

How the data were processed

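The authors deposited 1 table of 8 libraries, matched to the samples by column name. Per the series design text and as deposited, its values are RPM, used here as a normalized signal, with 46120 genes, 10 ribosomal RNAs and 92 ERCC controls each scaled by the authors to 1000000. The build IRGSP-1.0 and the tools RSEM 1.2.21, Bowtie 1.2.3 and Trimmomatic 0.39 are named, per the submitters' processing notes, with roles not given in the sources used here. Coordinates and sequences were not used here.

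The worth of 1 read was estimated as the commonest value above 0. Values were seldom whole multiples of it (9.50% to 12.2% within 0.1, for genes of 200 to 600 reads). For each library a range of shares of the gene's total was then added back, and the share giving the most whole values was kept. At the kept shares, 0.134% to 0.146%, 46.5% to 53.7% of values were whole. Chance is 20% for 1 fixed share, and the level for a share picked in this way was not worked out. As the values were not whole counts, no count test was run.

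The 21991 genes averaging 1 RPM or more were tested on log2(RPM + 1), so that fold changes of low genes are understated, with limma 3.58.1 in R 4.3.3 (4 group means, eBayes with a trend, two-sided, Benjamini-Hochberg adjustment over all genes tested, threshold 0.05). Each NT library, having no replicate, was taken to vary as the lines did. Roots against leaves was fitted as 4 against 4 libraries. The fit was tested on simulated data drawn with the same spread for NT as for the lines. That test could not check whether NT varied as the lines did. Python 3.11.15 with numpy 2.4.6, pandas 2.3.3, scipy 1.17.1 and matplotlib 3.10.9 did the rest, and statmod 1.5.0 the block fit. TMM factors were computed directly, without weights.

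Root and leaf libraries of a line are paired by the labels, which name the line. Deviations of the same line correlated at 0.196, -0.0308 and 0.144 for lines 13, 15 and 19 over 15860 genes. Libraries of a tissue correlated at 0.965 to 0.994 and none were identical. The rule for named genes took the 5 storage genes and, for each, the 2 most similar genes with a symbol by either measure. The 5 genes, the lists and this rule were chosen with earlier results of these data known. Most other iron genes named were list members that passed between lines and NT or carried the Ccc1 family domain. Os01g0508100, Os01g0830000, MIR and ISC22 met neither condition and were named outside this rule. Lists were matched on symbols, descriptions and gene names. Cation-chloride cotransporters, also called CCC1, were left out. OsLHCB5 had no match, and the symbol OsIRT1 also found OsIRT2 and OsNAAT1 also OsNAAT4. Settings varied were the pseudocount, the filter, the scaling, the added-back reads, the block, the fit on a tissue alone and each line left out.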

Additional observations from a re-analysis of the deposited data

Results flagged for a closer look

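Groups of 1 and 3 libraries were too small for a check of single libraries that stand apart, and for 0 of the 5 storage genes did the response differ between roots and leaves by the test of the difference (limma), or lie on opposite sides of NT. In the ribosomal RNA class, which the comparisons of genes do not use, the chloroplast share in roots was above the NT value of 0.125% in every line, at 0.450% in line 13, 1.43% in line 15 and 1.86% in line 19.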

How the results depend on the processing

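OsFER2 in roots kept its sign in 12 of 12 alternatives (log2 fold change 0.52 to 0.72) and its call in 4, with limma adjusted p from 0.0317 to 0.187. The number of storage genes called in roots was 0 in place of 1 with a pseudocount of 0.1 RPM, a filter at 5 RPM, TMM rescaling, the added-back reads and the fit on roots alone, and 0 to 0 without a line. In each of these 2 to 4 had an unadjusted p under 0.05. In leaves and in the difference it stayed at 0, and between tissues at 4 or 5. OsVIT2 between tissues also passed with quantile normalization (-0.71) and without line 13 (-0.43). In leaves MIT turned to -0.03 with TMM rescaling, and the difference of OsVIT2 to -0.01 without line 13. Over the 3 lines left out it reached 0.19, and over all alternatives 0.23, with TMM rescaling.

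Over all genes 256 were called in roots, but 410 at a pseudocount of 5 RPM, 684 unfiltered, 121 with a filter at 5 RPM, 57 on roots alone and 64 to 253 without a line (91 without line 15, 64 without line 19). In leaves 834 were called, but 16 on leaves alone and 90 to 803 without a line (211 without line 15, 90 without line 19). For the difference 84 were called, but 161, 245, 31, 47 and 54 with a pseudocount of 5 RPM, no filter, a filter at 5 RPM, TMM rescaling and quantile normalization, and 0 to 25 without a line (limma, the 0 being without line 19, with 2909 at an unadjusted p under 0.05). With the replicate block the count for the difference was 26, and the block changed no call of a storage gene other than OsVIT2 between tissues. The cause of these shifts was not tested. Leaving out both NT libraries between tissues, an alternative chosen after seeing the data, gave 18116 genes against 18184. Depth limited OsVIT1 most, whose root values rested on about 79 to 139 reads.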

Other observations

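MIR (Os12g0282000), a gene of the list around MIT, is known in rice as an iron-regulated mitochondrial protein. It was listed at 0 in all 4 leaf libraries. In roots it had 4.73 RPM for NT and 4.11, 4.82 and 5.996 RPM for lines 13, 15 and 19. The frataxin-like gene ISC22, of mitochondrial iron handling, was at 20.4 RPM in NT roots and 22.6 to 23.7 RPM in roots of the lines, and at 17.1 RPM in NT leaves and 13.9 to 19.7 RPM in leaves of the lines. ISC10 was the gene with a symbol nearest to MIT after subtraction of the tissue means. It was at 45.8 RPM in NT roots and 48.2, 52.0 and 60.9 RPM in roots of lines 13, 15 and 19, and at 40.7 to 44.6 RPM in leaves. All 3 were named after their values had been seen.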
